A study of Homo sapiens with 8 samples.

Results

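The genes described here encode the constitutive proteasome, the protease that degrades ubiquitin-tagged proteins in the cytosol and nucleus. They were taken by symbol: every gene named PSMA, PSMB, PSMC, PSMD, PSME or PSMG followed by digits, without pseudogenes, plus POMP and ADRM1, and leaving out the immunoproteasome genes PSMB8 and PSMB9. This gave 47 of the 60652 genes listed. Messenger RNA was measured in 8 libraries of human HEK293T cells, an embryonic kidney line, carrying a TRE3G-GFP reporter. In all 4 groups the cells were kept in 10% serum, received a plasmid-encoded activator and a guide, and were sorted for mCherry and BFP at day 2. The dCasMINI-VPR sgTet and dCasMINI-VPR sgNT groups carried the small nuclease-dead dCasMINI joined to the VPR activation domains, with a guide named for the Tet reporter or a non-targeting guide. The dCas12a-VPR crTet and dCas12a-VPR crNT groups carried the larger dCas12a joined to VPR, with the corresponding guides. Each group had 2 libraries. The labels do not state whether replicates were separate transfections, so p-values measure only the spread between these libraries, which may be technical. Construct also coincides with a prefix in the naming of the deposited libraries, and construct and prefix cannot be told apart.

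The proteasome consists of a barrel, the 20S core particle, and caps that select substrates. Stacked rings of alpha subunits (PSMA genes) gate the barrel, and rings of beta subunits (PSMB genes) enclose the catalytic sites of PSMB5, PSMB6 and PSMB7. The 19S regulatory particle has a base with ATPases that unfold substrates (PSMC genes) and ubiquitin receptors, and a lid that includes the deubiquitinase PSMD14. Dedicated chaperones assemble core and cap, and interferon induces PSMB10, an alternative catalytic subunit, together with PSME1 and PSME2, which form the PA28 activator. In human cells short of proteasome activity, the transcription factor NFE2L1 raises the subunit genes together.

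Reads in genes numbered between 17474404 and 21081942 a library, and the 47 genes held between 0.724% and 0.795% of them. All 7 genes listed as expressed in HEK293T cells were present, among them IRS4 at 812 to 1031 CPM (reads of a gene scaled to a common library size). Of 8 genes of other cell types, PTPRC and HBB had no read, CD3E, PECAM1, CDH5, COL1A2 and ALB stayed at or under 0.624 CPM, and COL1A1 lay between 32.4 and 44.4 CPM. The reporter transcript EGFP had 920 and 1094 CPM in dCasMINI-VPR sgTet against 3.23 and 4.43 CPM in sgNT, and 804 and 708 CPM in dCas12a-VPR crTet against 2.77 and 2.66 CPM in crNT. In the crNT libraries 14.4% and 12.7% of the reads were unmapped, while the 6 other libraries held 8.32% to 9.62%. The replicates of sgTet stood further apart than those of any other group, with a chi-square of 13.9 per degree of freedom over genes, against 3.93 in sgNT, 6.93 in crTet and 3.19 in crNT.

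Promoter sequences were available for 41 of the 47 genes, as 250 bases before to 50 bases after the RefSeq start (GRCh38.p14). PSMA7, PSMB1, PSMB6, PSMB7, PSMD4 and PSMG3 were not matched. Those of the interferon-inducible genes are shown because PSME1 and PSME2 had lower levels with dCasMINI-VPR than with dCas12a-VPR, with the core of the interferon-stimulated response element (GAAA, any 2 bases, GAAA, or its reverse complement) in capitals. PSME1 lies at chr14:24135944-24136243 on the plus strand, PSME2 at chr14:24146561-24146860 on the minus strand, and PSMB10 at chr16:67936801-67937100 on the minus strand.
PSME1: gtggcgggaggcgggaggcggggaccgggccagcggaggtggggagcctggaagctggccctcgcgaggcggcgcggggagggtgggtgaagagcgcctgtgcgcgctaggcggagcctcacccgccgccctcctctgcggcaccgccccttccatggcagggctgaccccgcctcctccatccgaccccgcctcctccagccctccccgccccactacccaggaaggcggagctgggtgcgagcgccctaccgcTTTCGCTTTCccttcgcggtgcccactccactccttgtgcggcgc
PSME2: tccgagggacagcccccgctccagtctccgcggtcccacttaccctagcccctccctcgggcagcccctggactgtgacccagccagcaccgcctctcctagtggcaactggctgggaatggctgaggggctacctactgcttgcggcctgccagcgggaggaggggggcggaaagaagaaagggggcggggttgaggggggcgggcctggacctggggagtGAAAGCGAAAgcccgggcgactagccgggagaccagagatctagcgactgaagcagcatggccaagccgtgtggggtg
PSMB10: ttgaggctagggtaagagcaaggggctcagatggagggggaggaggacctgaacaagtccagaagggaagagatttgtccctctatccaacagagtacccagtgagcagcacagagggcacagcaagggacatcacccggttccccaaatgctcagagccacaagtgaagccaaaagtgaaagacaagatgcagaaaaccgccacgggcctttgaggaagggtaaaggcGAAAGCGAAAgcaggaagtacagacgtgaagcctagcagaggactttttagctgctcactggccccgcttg
The first base of the match stood 5 bases after the start in PSME1, where it read on the opposite strand, and at -28 in PSME2 and -21 in PSMB10.

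PSMD12 and PSMG1 are shown because they were the genes called higher with dCasMINI-VPR. Capitals mark TGACNNNGC, the antioxidant response element core that NFE2L1 and NFE2L2 bind with MAF proteins, CGGAAG, the ETS core, in PSMD12, and CCAAT, the NFY box, in PSMG1. PSMD12 lies at chr17:67366528-67366827 and PSMG1 at chr21:39183402-39183701, both on the minus strand.
PSMD12: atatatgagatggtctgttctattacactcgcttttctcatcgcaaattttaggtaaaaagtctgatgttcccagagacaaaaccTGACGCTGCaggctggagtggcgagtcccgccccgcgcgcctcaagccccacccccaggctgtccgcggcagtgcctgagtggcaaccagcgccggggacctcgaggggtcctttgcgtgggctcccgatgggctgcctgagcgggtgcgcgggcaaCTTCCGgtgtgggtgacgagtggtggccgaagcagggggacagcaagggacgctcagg
PSMG1: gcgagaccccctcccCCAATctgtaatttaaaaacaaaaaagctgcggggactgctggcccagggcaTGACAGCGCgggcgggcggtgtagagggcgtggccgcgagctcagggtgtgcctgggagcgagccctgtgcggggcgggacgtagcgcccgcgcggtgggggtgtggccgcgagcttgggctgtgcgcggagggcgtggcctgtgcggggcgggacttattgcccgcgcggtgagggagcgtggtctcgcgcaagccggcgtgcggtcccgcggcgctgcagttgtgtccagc
The TGACNNNGC match began at -165 in PSMD12 and at -183 in PSMG1, CGGAAG at -8 on the opposite strand in PSMD12, and CCAAT at -235 in PSMG1. TGACNNNGC is not particular to these genes: it was also found at -86 in PSME1 and at -175 in PSME2, where it is not in capitals above.

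Both strands were searched in the 41 promoters and in all 35116 of the table. CGGAAG was found in 58.5% of the 41 promoters, against 19.5% of all promoters. TGACNNNGC was found in 31.7% against 13.3%, in the promoters of ADRM1, PSMB3, PSMC4, PSMD1, PSMD12, PSMD3, PSMD5, PSMD9, PSME1, PSME2, PSME4, PSMG1 and PSMG2. CCAAT was found in 46.3% against 34.6%, the nuclear respiratory factor 1 site (GCGC, any base, TGCGC) in 12.2% against 5.78%, and CACGTG, the E box, in 7.32% against 7.26%. The interferon-stimulated response element core was found in 14.6% against 3.57%, in PSMA4, PSMB4 and PSMG4 beside the genes shown, and TTCNNNGAA, the gamma-activated sequence core, in 12.2% against 7.66%. The median GC content was 62.3% in the 41 promoters and 58.7% in all. A match is a run of letters and does not show binding.

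Most of the 47 genes were expressed in every library. The mean over the 8 libraries was at least 10 CPM in 39 genes, ranging from 18.5 to 455 CPM with a median of 187 CPM, and below 10 CPM in 8. Over these 39 genes the coefficient of variation across the 8 libraries had a median of 6.84%, between 3.46% in PSMB1 and 18.6% in PSME1, against a median of 9.31% over the 9717 genes of at least 10 CPM. The 9717 genes were not matched to the 39 in level, so the smaller median is a description only. In 35 of the 39 the highest library was less than 1.5 times the lowest, a count not made over all genes. The exceptions were PSME1, PSME2, PSMG1 and PSMG4, at 1.54, 1.52, 1.56 and 1.62 times. In bulk libraries, fewer cells of a kind and less RNA per cell cannot be told apart, so each level is an average over the sorted cells.

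**Figure D1:**
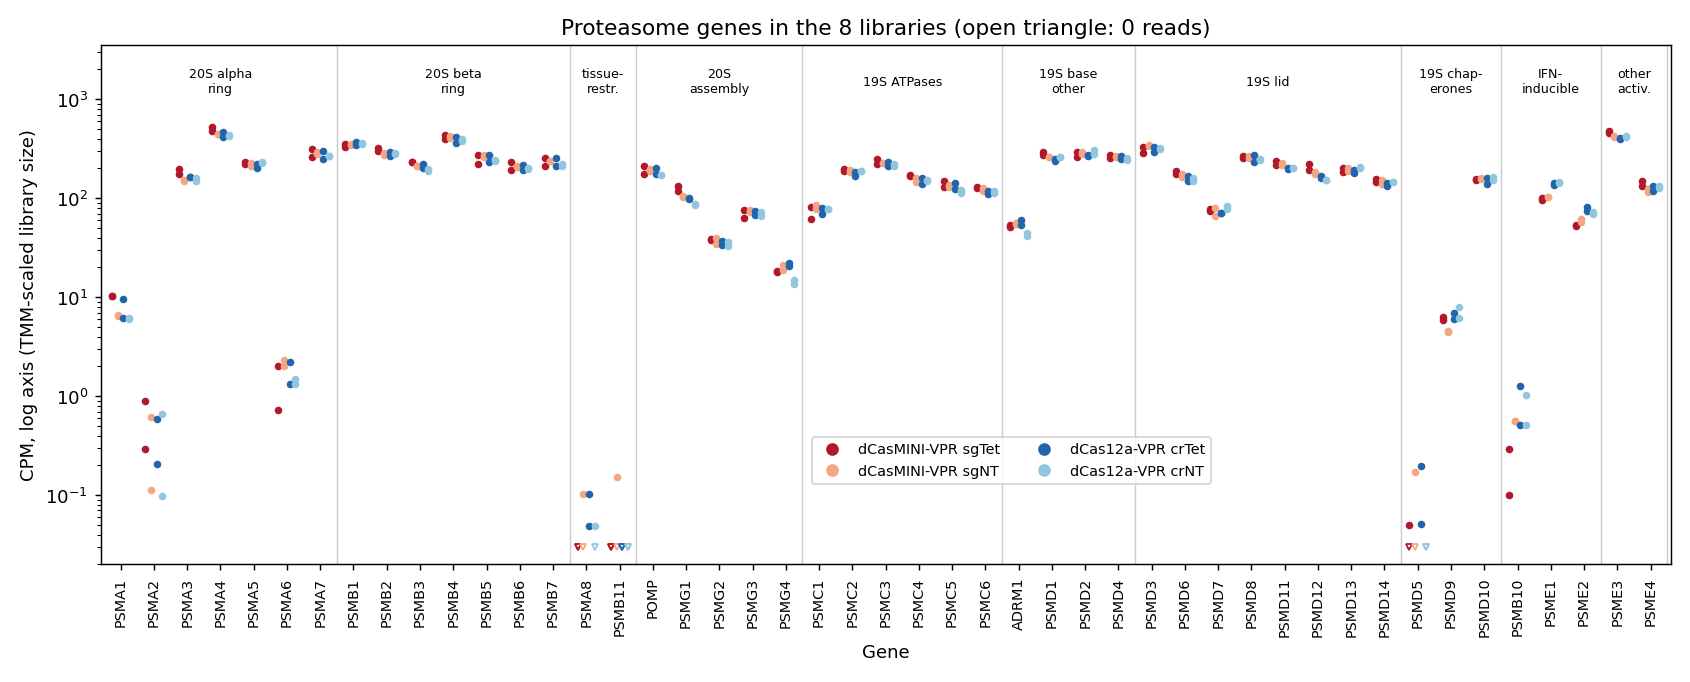
CPM of each of the 47 genes (x axis, by role) in each library on a log axis, coloured by group, with open triangles for 0 reads. Most genes lie between 18.5 and 455 CPM with the 8 libraries close together, while PSMA1, PSMA2, PSMA6, PSMB10, PSMD9, PSMD5, PSMA8 and PSMB11 lie below 10 CPM.

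Per length the median of the core particle genes was above that of the regulatory particle genes, while some core genes lay within the regulatory range. These were the alpha genes PSMA5, PSMA3 and PSMA4, at 38.9, 52.6 and 65.0 CPM per kilobase of merged exons, against 159 in PSMA7. The beta gene PSMB2, at 59.5 CPM per kilobase, also lay there. Scaled to merged exon length, the 11 core genes without same-strand overlap ranged from 38.9 CPM per kilobase in PSMA5 to 186 in PSMB4, with a median of 142 CPM per kilobase. The 18 genes of base and lid ranged from 12.4 CPM per kilobase in PSMC1 to 99.1 in PSMC3, with a median of 36.8 CPM per kilobase. These include PSMC1, PSMC5, PSMD7 and ADRM1, whose counts are uncertain through opposite-strand overlap, and the 14 others had a median of 51.1 CPM per kilobase, from 16.0 in PSMC6 upwards. Scaled instead to the annotation's principal transcript, the medians were 235 CPM per kilobase for the core and 80.3 for the 18 genes of the regulatory particle. Over the 14 regulatory genes without uncertain counts it was 89.9, and the highest regulatory gene was PSMD4, a ubiquitin receptor, at 191 CPM per kilobase. Of the catalytic genes, PSMB5 (chymotrypsin-like activity) stood at 142, PSMB6 (caspase-like) at 143 and PSMB7 (trypsin-like) at 129 CPM per kilobase of merged exons.

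Low counts were found in 8 genes. PSMA8, the alpha subunit of the testis, had 6 reads in the 8 libraries together, PSMB11, the catalytic subunit of the thymus, 3 reads and the 19S chaperone PSMD5 9 reads, where 3 reads in 1 library correspond to 0.145 to 0.170 CPM. These 3 genes did not pass the low-count filter, which left 44 genes to test. PSMA1, PSMA2 and PSMA6 encode alpha subunits that every 20S particle contains, yet they had 2.33, 0.0814 and 0.258 CPM per kilobase of merged exons, against 38.9 to 159 CPM per kilobase in the other alpha genes. In the GENCODE release 29 annotation, 53.2% of the exon length of the principal transcript of PSMA1 is shared with a gene on the same strand. The share was 52.5% for PSMA2, 81.0% for PSMA6, 45.3% for PSMB10 and 43.8% for the chaperone PSMD9. These 5 were the genes of the 47 with a share above 40%, and all 5 lay below 10 CPM.

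The overlapping genes include readthrough genes, which the annotation joins from a neighbour and the proteasome gene. Those of PSMA1, PSMA2 and PSMD9 had 0 reads in the 8 libraries, that of PSMA6 had 5 and that of PSMB10 had 91. Reads that overlap more than 1 gene were tallied apart in the deposited files as ambiguous, and made up between 10.4% and 11.2% of each library. How many of these reads came from PSMA1, PSMA2, PSMA6, PSMB10 or PSMD9 was not tested, and the counts of these genes are uncertain for that reason. PSMD5 has no same-strand overlap in release 29. The authors' annotation release is not given in the sources used here.

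**Figure D2:**
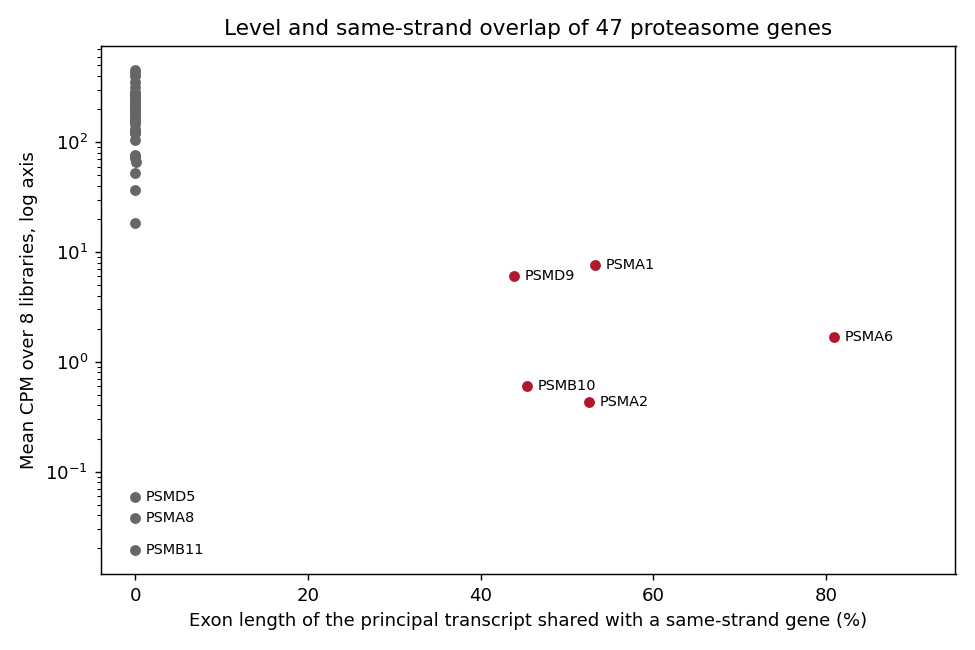
Mean CPM over the 8 libraries (log axis) and the share of principal-transcript exon length that a same-strand gene overlaps, a point for each gene, red above 40%. The 5 red genes lie below 10 CPM, and PSMD5, PSMA8 and PSMB11 are low without such overlap.

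Overlap on the opposite strand touched other members. The counts analysed ignore strand, and reads shared with an antisense neighbour are then ambiguous. The forward-strand and reverse-strand columns had near-equal totals in each library, such as 11375463 and 11075148 reads in dCasMINI-VPR sgNT replicate 1. With totals this even, neither column was taken to separate a gene from an antisense neighbour, here or below. The strand columns together held 3.70 times the reads of the unstranded column for ADRM1 (overlapped by LAMA5 and AL354836.1), 2.45 times for PSMC1 (NRDE2), 2.36 times for PSMD7 (AC009120.2) and 1.63 times for PSMC5 (FTSJ3). These were the 4 genes above 1.5 times among those with at least 50 reads, and PSMG4 stood at 1.37 times. Their unstranded counts are uncertain for that reason.

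The first question was whether the Tet guide, in cells with dCasMINI-VPR, went with other levels of proteasome mRNA than the non-targeting guide. None of the 44 genes was called in edgeR's quasi-likelihood test at a Benjamini-Hochberg adjusted p of 0.05, against 0.795% of the 16606 genes tested (0.470% higher and 0.325% lower). At an unadjusted p of 0.05, 8 of the 44 passed, against 12.3% of all genes, and DESeq2 called 0, against 0.735%. The median log2 fold change was 0.04 over the 44 genes and 0.00028 over all genes tested, and in 39 of the 44 the 95% interval lay within 0.5 log2 units of 0. Such counts of intervals were not made over all genes, here or in the comparisons below. They describe precision and are not a result particular to the proteasome. The core particle had a median of 0.05 over 14 genes and the regulatory particle a median of 0.05 over 18 genes.

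The catalytic genes varied mainly between the sgTet replicates. PSMB5 had 220.0 and 274.6 CPM in sgTet, against 272.6 and 260.2 CPM in sgNT (log2 fold change -0.11 ± 0.09, SE; adjusted p = 0.651). PSMB6 had 193.7 and 232.8 CPM in sgTet, against 211.9 and 206.9 CPM in sgNT (0.03 ± 0.08, adjusted p = 0.928). PSMB7 had 210.8 and 252.4 CPM in sgTet, against 239.0 and 240.1 CPM in sgNT (-0.05 ± 0.09, adjusted p = 0.862). In all 3 genes 1 sgTet library lay below and 1 above both sgNT libraries. The maturation factor POMP averaged 194.6 ± 26.1 CPM in sgTet and 192.3 ± 4.28 CPM in sgNT (SD, n = 2 each). The deubiquitinase PSMD14 averaged 151.7 ± 7.51 CPM in sgTet and 146.0 ± 9.18 CPM in sgNT. The largest positive differences were those of PSMA2 (0.67 ± 0.90, adjusted p = 0.815) and PSMA1, at 10.3 and 10.3 CPM in sgTet against 6.56 and 6.47 CPM in sgNT (0.66 ± 0.21, adjusted p = 0.153). The largest negative ones were those of PSMB10 (-1.50 ± 0.85, adjusted p = 0.478) and PSMA6 (-0.67 ± 0.45, adjusted p = 0.574). All 4 are genes with low counts and same-strand overlap.

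The number of calls in this comparison depended on 1 library, over all genes as well as over the proteasome genes. Without sgTet replicate 2, 8 of the 44 genes were called (18.2%), against 8.34% of all genes tested. These were PSMA3, PSMA4, PSMD12, PSME4 and PSMG1, which were higher, and PSMB5, PSMC1 and PSMD3, which were lower. The sgTet replicates differed in a way that went with GC content. Over the 39 genes of at least 10 CPM, the log2 difference of sgTet replicate 1 minus replicate 2 had a Pearson correlation of -0.34 with the GC content of the longest transcript, and over 9707 genes of at least 10 CPM it was -0.57. Across the members this difference lay between -0.43 in PSMC1 and 0.21 in PSMD12. In sgNT the correlation over the 39 genes was -0.21, in crTet -0.25 and in crNT -0.15. These correlations run over genes of the same pair of libraries, and the part of GC content in the differences was not tested.

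**Figure D3:**
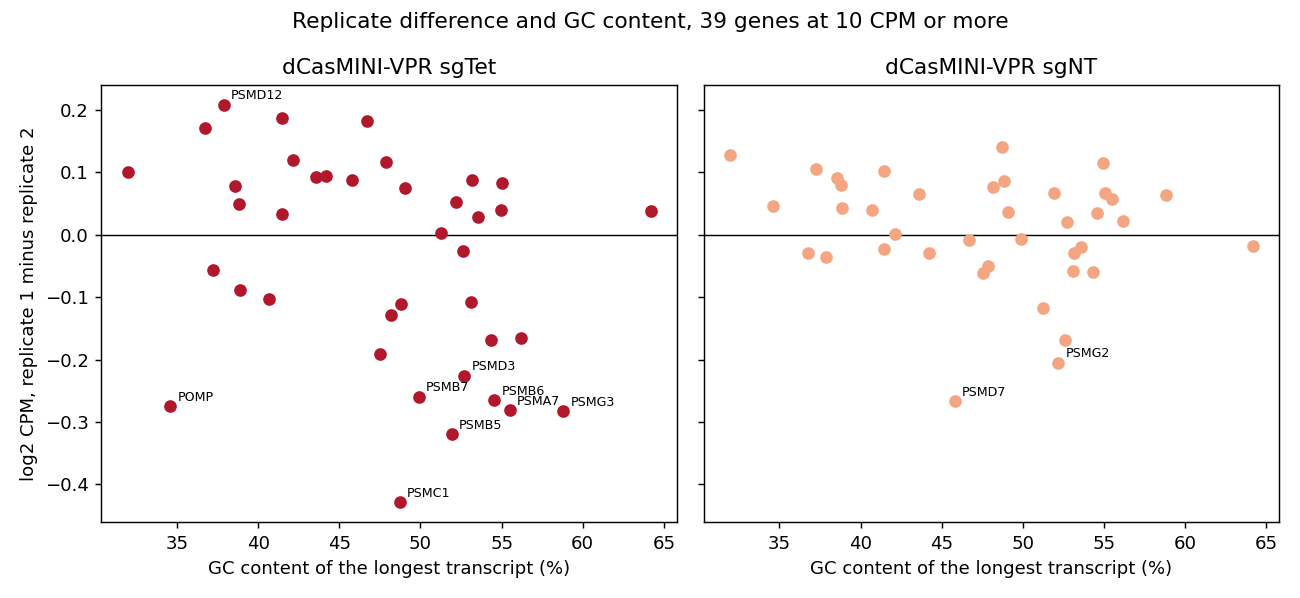
Log2 CPM of replicate 1 minus replicate 2 against transcript GC content for the 39 genes of at least 10 CPM, in dCasMINI-VPR sgTet (left) and sgNT (right), with names where the size exceeds 0.2. The sgTet differences spread from -0.43 to 0.21 and the sgNT differences from -0.27 to 0.14.

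With dCas12a-VPR, crTet was compared with crNT in the same way. ADRM1 and PSMG4 were higher in crTet, and no gene was lower. The 2 called genes make 4.55% of the 44, against 6.32% of all genes tested, a share not above the background, in which 3.56% were called higher and 2.75% lower. At an unadjusted p of 0.05, 5 of the 44 passed, against 19.8% of all genes, and DESeq2 also called 2, against 6.29%. The median log2 fold change was 0.03 over the 44 genes and 0.0080 over all genes, and 37 of the 44 had a 95% interval within 0.5 log2 units of 0. No core particle gene was called of 14, where none passed an unadjusted p of 0.05 and DESeq2 called 0, with a median of 0.06. The regulatory particle had a median of -0.02 over 18 genes.

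ADRM1 encodes a ubiquitin receptor of the 19S base that also binds a deubiquitinase. The gene lies on chromosome 20 in hg38, at 62302093 to 62308862. It had 54.2 and 60.6 CPM in crTet, against 41.8 and 44.5 CPM in crNT (log2 fold change 0.41 ± 0.10, adjusted p = 0.00896). The crTet libraries lay above both crNT libraries, which were the lowest of the 8, and the dCasMINI-VPR libraries stood at 51.7 to 55.8 CPM. The call was lost with forward-strand counts (0.11, adjusted p = 0.532), with reverse-strand counts (0.21, adjusted p = 0.162) and when a trend with length and GC content was removed (0.23, adjusted p = 0.129). It was also lost without crNT replicate 1 (0.36, adjusted p = 0.24), crNT replicate 2 (0.46, adjusted p = 0.0596) or crTet replicate 2 (0.33, adjusted p = 0.146). Over the 17 alternatives its adjusted p ranged from 0.00113 to 0.532. ADRM1 is also the gene whose strand columns held 3.70 times the reads of the unstranded column. Neither column separates it from its antisense neighbours, so the results with these columns were not read as a test of strand.

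PSMG4 encodes a chaperone of 20S assembly that works as a dimer with PSMG3. The gene lies on chromosome 6, at 3231403 to 3303373. It had 20.6 and 22.2 CPM in crTet, against 13.7 and 15.0 CPM in crNT (0.58 ± 0.14, adjusted p = 0.00928). The groups did not overlap, and the crNT libraries were again the lowest of the 8. The call was lost with forward-strand counts (0.45, adjusted p = 0.0903) and without crNT replicate 1 (0.51, adjusted p = 0.226), crNT replicate 2 (0.65, adjusted p = 0.058) or crTet replicate 2 (0.53, adjusted p = 0.0889). Over the 17 alternatives its adjusted p ranged from 0.00236 to 0.226. The crNT libraries were also those with 14.4% and 12.7% unmapped reads, and the part of this in both calls was not tested. PSMG3 itself did not pass the test (0.04 ± 0.10, adjusted p = 0.868). The largest negative differences were those of the lid gene PSMD7 (-0.20 ± 0.09, adjusted p = 0.236) and the alpha subunit PSMA5 (-0.13 ± 0.07, adjusted p = 0.349).

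The catalytic genes had higher means in crTet without passing the test. PSMB5 had 232.2 and 271.0 CPM in crTet, against 236.0 and 241.2 CPM in crNT (0.08 ± 0.09, adjusted p = 0.695). PSMB6 had 192.3 and 218.6 CPM in crTet, against 200.2 and 198.3 CPM in crNT. PSMB7 had 212.2 and 255.4 CPM in crTet, against 212.2 and 222.2 CPM in crNT. In each of them the lower crTet library was within or below the crNT range. POMP averaged 189.7 ± 17.3 CPM in crTet and 170.9 ± 1.28 CPM in crNT (0.15 ± 0.08, adjusted p = 0.323). PSMD14 averaged 137.3 ± 6.60 CPM in crTet and 145.4 ± 0.394 CPM in crNT (-0.08 ± 0.08, adjusted p = 0.618). The crTet libraries lay above both crNT libraries for POMP and below both for PSMD14, and neither difference passed the test.

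The guide effects of the 2 constructs were then compared directly. No proteasome gene was called, against 1.35% of all genes tested (0.506% higher and 0.843% lower), while 5 of 44 passed an unadjusted p of 0.05, against 15.9%, and DESeq2 called 1, ADRM1, against 1.80%. For PSMG4 the guide effect with dCasMINI-VPR less that with dCas12a-VPR was -0.71 ± 0.20 (adjusted p = 0.0588), and for ADRM1 it was -0.49 ± 0.14 (adjusted p = 0.0643). The adjusted p of ADRM1 ranged from 0.0217 to 0.59 over 16 alternatives, and that of PSMG4 from 0.0196 to 0.346 over 15, since DESeq2 gave it none. The largest differences in each direction belonged to genes with low counts. These were PSMB10 (-1.70 ± 1.09, adjusted p = 0.464), PSMA6 (-0.99 ± 0.64, adjusted p = 0.474), PSMA2 (0.60 ± 1.31, adjusted p = 0.871) and PSMD9 (0.55 ± 0.32, adjusted p = 0.407). Without sgTet replicate 2, 4 genes were called (9.09%, against 10.4% of all genes tested), of which ADRM1, PSMB5 and PSMG4 were lower and PSME4 was higher. The 95% interval lay within 0.5 log2 units of 0 in 34 of the 44 genes, and the median was 0.03 over the 44 and -0.01 over all genes.

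Over both guides, the dCasMINI-VPR libraries had less PSME1 and PSME2 mRNA and slightly more PSMD12 and PSMG1 mRNA than the dCas12a-VPR libraries. These 4 genes, 2 higher and 2 lower, were the called genes of the 44, which is 9.09%, against 10.0% of all genes tested. With these settings the share does not exceed the background, in which 4.83% of all genes were called higher and 5.20% lower. At an unadjusted p of 0.05, 14 of the 44 passed, a larger share than the 23.7% of all genes. DESeq2 called 5 (11.4%), against 9.18%. With DESeq2's size factors in edgeR, 6 genes were called (13.6%, against 10.1%), of which PSMD6 and PSMD11 joined the higher ones. Of the alternatives that kept all 8 libraries, only library size alone also left the share below that of all genes (9.09%, against 9.60%). The median log2 fold change was 0.08 over the 44 genes and 0.0020 over all genes. It was positive in 36 of the 44, a count not made over all genes and given as a description only. The 95% interval lay within 0.5 log2 units of 0 in 37 of the 44.

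**Figure D4:**
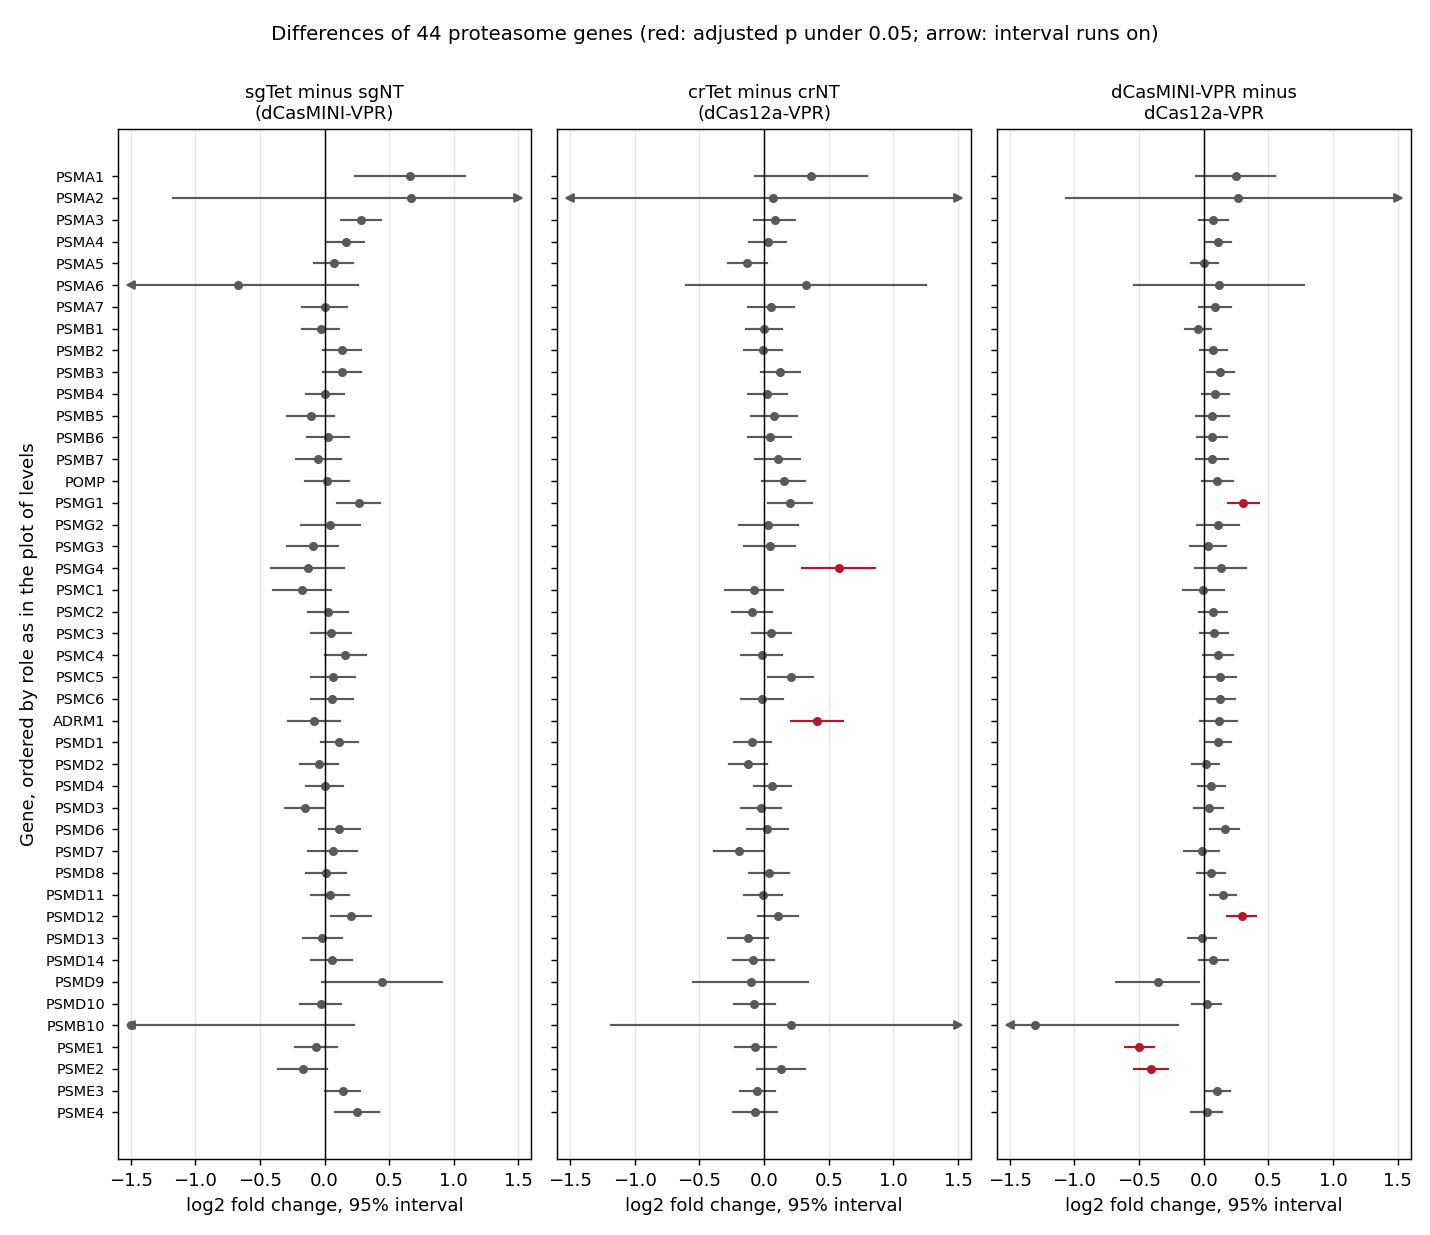
Log2 fold change with 95% interval of the 44 tested genes, for sgTet minus sgNT, crTet minus crNT and dCasMINI-VPR minus dCas12a-VPR, red where the adjusted p was under 0.05. ADRM1 and PSMG4 are red in the second panel, PSMG1, PSMD12, PSME1 and PSME2 in the third, and none in the first.

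PSME1 encodes the alpha subunit of PA28, the ring that opens the core gate without ATP. It had 101.3 and 95.3 CPM in sgTet and 101.8 and 103.9 CPM in sgNT, against 134.9 and 142.7 CPM in crTet and 146.6 and 144.1 CPM in crNT. All 4 dCasMINI-VPR libraries lay below all 4 dCas12a-VPR libraries. The means were 100.6 ± 3.71 CPM with dCasMINI-VPR and 142.1 ± 5.08 CPM with dCas12a-VPR (SD, n = 4 each; log2 fold change -0.50 ± 0.06, 1.41-fold lower, adjusted p = 6.17e-08). Neither guide comparison moved PSME1 past the test (sgTet minus sgNT -0.07 ± 0.08, adjusted p = 0.791; crTet minus crNT -0.07 ± 0.08, adjusted p = 0.70).

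PSME2 encodes the beta subunit of PA28. It had 53.1 and 53.0 CPM in sgTet and 57.3 and 62.2 CPM in sgNT, against 75.1 and 80.8 CPM in crTet and 69.5 and 73.1 CPM in crNT. The constructs again did not overlap. The means were 56.4 ± 4.34 CPM with dCasMINI-VPR and 74.6 ± 4.71 CPM with dCas12a-VPR (-0.41 ± 0.07, 1.32-fold lower, adjusted p = 4.93e-05). PSME1 and PSME2 lie on chromosome 14 in hg38, at 24136158 to 24138967 and 24143362 to 24147570. Together they held 154.4 and 148.3 CPM in sgTet and 159.1 and 166.1 CPM in sgNT, against 209.9 and 223.5 CPM in crTet and 216.1 and 217.2 CPM in crNT. Set against the summed CPM of the 14 core genes, this was between 4.50% and 5.45% with dCasMINI-VPR and between 6.94% and 7.37% with dCas12a-VPR. The annotation lists 6 pseudogenes of PSME2, with 190 reads in the 8 libraries, and reads that could be shared with them make its counts less certain.

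The third interferon-inducible member, PSMB10, was near the floor. It had 0.100 and 0.290 CPM in sgTet and 0.564 and 0.567 CPM in sgNT, against 1.27 and 0.516 CPM in crTet and 0.512 and 1.03 CPM in crNT. The constructs overlapped, and the difference did not pass the test (-1.30 ± 0.54, adjusted p = 0.13). Of the immunoproteasome genes outside the list, PSMB9 had 2.45 and 2.52 CPM in sgTet and 3.69 and 2.89 CPM in sgNT, against 6.78 and 4.18 CPM in crTet and 9.84 and 7.88 CPM in crNT (-1.28 ± 0.19, adjusted p = 1.29e-05). PSMB8 had between 0 and 0.397 CPM in every library and was not tested.

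Genes of antigen presentation on MHC class I, which loads peptides made by the proteasome, were lower alongside PSME1 and PSME2. Of 14 tested, 10 were lower with dCasMINI-VPR and none was higher, a share of 71.4% called with a median log2 fold change of -0.61, against 10.0% and 0.0020 over all genes tested. The peptide transporter TAP1 (-1.04 ± 0.07, adjusted p = 2.26e-13) and the class I heavy chains HLA-B (-0.71 ± 0.05, adjusted p = 1.90e-12) and HLA-E (-0.74 ± 0.06, adjusted p = 4.65e-11) had the smallest adjusted p. TAP1 had 45.4 and 53.2 CPM in sgTet and 70.3 and 61.3 CPM in sgNT, against 95.7 and 85.1 CPM in crTet and 158.1 and 144.0 CPM in crNT. Between guides, 3 of these genes were lower in sgTet (TAP1 -0.42, HLA-C -0.38 and HLA-B -0.30), 21.4% of the list against 0.325% of all genes called lower. In crTet 4 were lower, among them TAP1 (-0.74), HLA-E (-0.38) and B2M (-0.35), 28.6% against 2.75%. PSME1 and PSME2 were not called in either guide comparison, and whether their guide effects differ from that of TAP1 was not tested. This list was compiled with the interferon-related results of these data known and is not independent evidence of a direction.

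**Figure D5:**
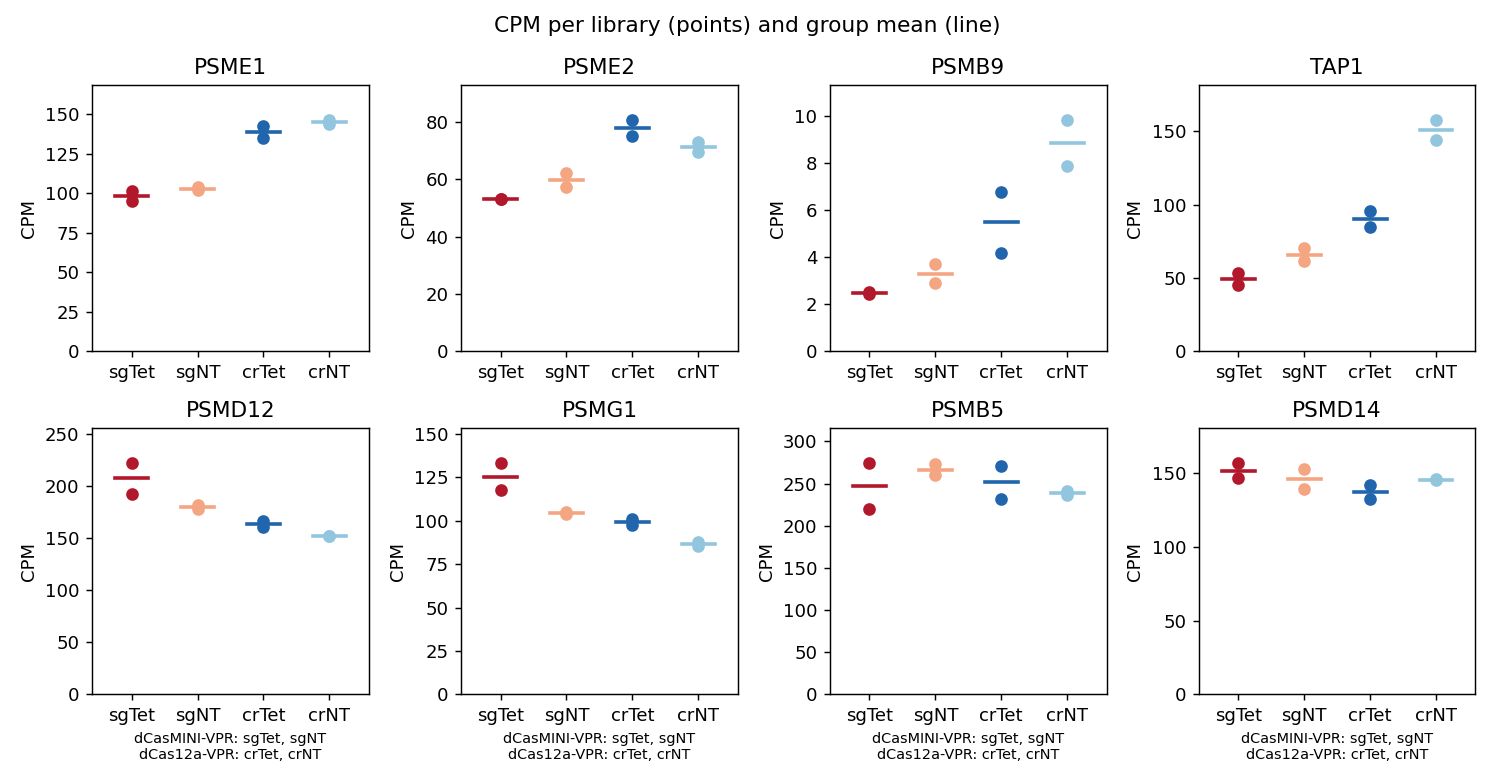
CPM of PSME1, PSME2, PSMB9, TAP1, PSMD12, PSMG1, PSMB5 and PSMD14 in each library (points) with group means (lines), each axis starting at 0. PSME1 and PSME2 separate by construct, TAP1 also differs between guides, and PSMB5 and PSMD14 overlap between the constructs.

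PSMD12, a structural subunit of the lid on chromosome 17 (67337916 to 67366627), had 222.2 and 192.4 CPM in sgTet and 177.6 and 182.0 CPM in sgNT, against 160.3 and 166.5 CPM in crTet and 151.5 and 151.8 CPM in crNT. All dCasMINI-VPR libraries lay above all dCas12a-VPR libraries, and the highest was sgTet replicate 1. The means were 193.6 ± 20.1 CPM with dCasMINI-VPR and 157.5 ± 7.25 CPM with dCas12a-VPR (0.29 ± 0.05, 1.23-fold, adjusted p = 3.33e-04). PSMG1, a chaperone of alpha ring assembly on chromosome 21 (39174769 to 39183851), had 133.3 and 117.5 CPM in sgTet and 104.1 and 104.7 CPM in sgNT, against 97.6 and 100.7 CPM in crTet and 85.4 and 87.6 CPM in crNT. Its means were 114.9 ± 13.7 CPM with dCasMINI-VPR and 92.8 ± 7.49 CPM with dCas12a-VPR (0.31 ± 0.06, 1.24-fold, adjusted p = 5.24e-04). Its partner PSMG2 did not pass the test (0.11 ± 0.08, adjusted p = 0.418).

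By role, the log2 fold changes of dCasMINI-VPR over dCas12a-VPR were small outside the interferon-inducible genes. The 7 alpha genes lay between 0.01 and 0.27 with a median of 0.11, and the 7 beta genes between -0.05 and 0.13 with a median of 0.07. The 6 base ATPases, which unfold the substrate, lay between -0.0032 and 0.13 with a median of 0.10, and the 4 other base genes between 0.02 and 0.12 with a median of 0.08. The 8 lid genes lay between -0.01 and 0.29, where PSMD12 was the highest, with a median of 0.07. The 5 genes of 20S assembly lay between 0.03 and 0.31, where PSMG1 was the highest, with a median of 0.11. The 19S chaperones PSMD10 and PSMD9 had 0.02 and -0.36, and neither passed the test.

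The 4 calls held in every alternative run. With either strand column ADRM1 was called higher as well. The 5 called genes then made 11.9% with forward-strand and 11.6% with reverse-strand counts, against 7.18% and 7.20% of all genes. Over 16 alternatives the log2 fold change lay between -0.55 and -0.44 for PSME1, -0.44 and -0.35 for PSME2, 0.24 and 0.34 for PSMD12, and 0.26 and 0.36 for PSMG1. The highest adjusted p was 0.0099, for PSMG1. In 3 alternatives over 1.5 times as many of the 44 genes were called, and the share called over all genes was also above 10.0%. With a trend of length and GC content removed, 11 of the 44 were called (25%), against 15.2% of all genes. Without sgTet replicate 2, 9 were called (20.5%), against 13.6%. In both, PSMB3, PSMD1, PSMD6 and PSMD11 were among the added genes. Without sgTet replicate 1, 7 were called (15.9%, against 11% of all genes), with POMP, PSMA7 and PSMC5 added.

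At edgeR's adjusted p of 0.05, the subunits of core and regulatory particle were called between constructs in a share not above that of all genes. None of the 14 core genes was called, against 10.0% of all genes, and their median was 0.08. Of the 14, 2 passed an unadjusted p of 0.05, against 23.7%, and DESeq2 called 0, against 9.18%. Of the 18 regulatory genes PSMD12 alone was called by edgeR (5.56%), with a median of 0.08. Of these 18, 6 passed an unadjusted p of 0.05 and DESeq2 called 2, both larger shares than those of all genes. The summed CPM of the core was 3121 and 3293 in sgTet and 3129 and 3046 in sgNT, against 2854 and 3219 in crTet and 2931 and 3006 in crNT. The summed CPM of the regulatory particle was 3386 and 3463 in sgTet and 3374 and 3346 in sgNT, against 3054 and 3316 in crTet and 3223 and 3204 in crNT. The core sums overlapped between constructs, and the regulatory sums of dCasMINI-VPR lay above those of dCas12a-VPR. The ratio of core to regulatory sum lay between 0.910 and 0.971 in all 8 libraries. PSMB5 averaged 256.9 ± 25.4 CPM with dCasMINI-VPR and 245.1 ± 17.7 CPM with dCas12a-VPR, and its log2 fold change had a 95% interval from -0.06 to 0.19. PSMD14 averaged 148.8 ± 7.59 CPM with dCasMINI-VPR and 141.4 ± 6.04 CPM with dCas12a-VPR, with an interval from -0.04 to 0.19. The other activators PSME3, the nuclear PA28 subunit (0.11 ± 0.05, adjusted p = 0.165), and PSME4, which encodes PA200 (0.02 ± 0.06, adjusted p = 0.861), did not pass the test.

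The other genes of the ubiquitin-proteasome pathway were described by list. Of 18 factors that bind or remodel the proteasome, none was called with the dCasMINI-VPR guide, where 2 passed an unadjusted p of 0.05 and DESeq2 called 0. Over all genes tested these shares were 0.795%, 12.3% and 0.735%, so no call in a list of this size is near the background. With the dCas12a-VPR guide SEM1, the small lid subunit, was higher (0.51), and ZFAND2A (-0.57) and the ubiquitin ligase UBE3C (-0.24) were lower, which makes 16.7% of the 18, against 6.32% of all genes. Between constructs ECPAS, a proteasome adaptor, was the called gene, higher with dCasMINI-VPR (0.25), or 5.56% against 10.0% of all genes. Of 15 genes of the NFE2L1 pathway, none was called with the dCasMINI-VPR guide (0.795% of all genes). There 2 passed an unadjusted p of 0.05, against 12.3% of all genes, and DESeq2 called 0, against 0.735%. With the dCas12a-VPR guide SEL1L (-0.39) and the cystine transporter SLC7A11 (-0.49) were lower, 13.3% of the 15, against 6.32%. Between constructs 1 of the 15 was higher and 3 were lower with dCasMINI-VPR, namely SLC7A11 (-0.51), MAFF (-0.56) and HMOX1 (-0.28). These 4 make 26.7%, against 10.0% of all genes. None of 14 ubiquitin genes was called by edgeR in any comparison, while between 2 and 4 passed an unadjusted p of 0.05 and DESeq2 called 1 with the dCas12a-VPR guide and 0 otherwise. Over all genes tested, between 0.795% and 10.0% were called by edgeR, and between 12.3% and 23.7% passed an unadjusted p of 0.05. Between constructs the median log2 fold change was 0.03 over the proteasome-binding factors, -0.10 over the NFE2L1 pathway and 0.0061 over the ubiquitin genes. Of 15 genes of the p97 unfoldase and its cofactors, NPLOC4 was lower with the dCas12a-VPR guide (-0.28), or 6.67% against 6.32%. None of these 15 was called between constructs (median 0.01), against 10.0% of all genes. There 0 passed an unadjusted p of 0.05, against 23.7%, and DESeq2 called 0, against 9.18%.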

How the data were processed

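Poly(A)-selected RNA of 8 libraries was analysed, 2 for each of 4 groups, mapped from the titles. The authors deposited counts of reads per gene, aligned to hg38 with STAR per the submitters' processing notes (its version is not given in these sources). The column that ignores strand was used. Totals that name no gene, such as unmapped reads (8.32% to 14.4%), were set aside. Of 60652 listed genes, 60592 had a symbol and 58361 matched GENCODE release 29, which gave coordinates, lengths, GC content and overlaps. Reads carry no molecular identifiers, so floors cover counting error only.

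Counts were fitted with edgeR 4.0.16 in R 4.3.3 (quasi-likelihood, robust, TMM, low-count filter by group) in 1 model of all libraries, with 4 residual and 28.9 prior degrees of freedom and a biological coefficient of variation of 8.04%. TMM factors lay between 0.979 and 1.02. Tests were two-sided, Benjamini-Hochberg adjusted over 16606 genes, and called at 0.05. The 4 contrasts were sgTet minus sgNT, crTet minus crNT, the difference between these, and the mean of the dCasMINI-VPR groups minus that of the dCas12a-VPR groups. SE was taken from the log2 fold change and the F statistic. CPM use TMM-scaled library sizes. The pipeline was tested on simulated data. DESeq2 1.42.0, other normalizations, strand columns, no filter, a replicate block, removal of a length and GC trend, each construct alone and leaving out each library were the alternatives. Length of the principal transcript, the regulatory genes without opposite-strand overlap, and the interferon-stimulated response element and gamma-activated sequence motifs were added after seeing the data.

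Of the neighbouring and marker lists, 2 genes are not reported here. The members and lists were chosen with earlier results of these data known. Named were called genes, PSMB5, PSMB6, PSMB7, PSMB10, PSME1, PSME2, PSMD14, POMP, PSMB8 and PSMB9, genes under the filter, the 2 largest rises and 2 largest falls in each contrast, and up to 3 called genes of each neighbouring list in each contrast. Other genes given as extremes or partners were chosen after their values were seen.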

Additional observations from a re-analysis of the deposited data

Results flagged for a closer look

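Of the comparison genes reported here, 1 had a guide effect that differed between the constructs in edgeR's quasi-likelihood test of the difference. UBE4A, a ubiquitin ligase that works with p97, had 76.2 and 69.2 CPM in sgTet against 60.2 and 63.6 CPM in sgNT, and 59.4 and 57.2 CPM in crTet against 71.4 and 71.4 CPM in crNT. The Tet libraries lay above their controls with dCasMINI-VPR and below them with dCas12a-VPR, and the guide effect with dCasMINI-VPR less that with dCas12a-VPR was 0.522 on the log2 scale (adjusted p = 0.0348). UBE4A was 1 of the 15 genes of p97 and its cofactors (6.67%), against 1.35% of all genes tested, and no other comparison list had a call here. The UBE4A call was not followed through the alternatives. No proteasome gene differed in this way at an adjusted p of 0.05. An unadjusted p of 0.05 was passed by 5 of the 44, against 15.9% of all genes, and DESeq2 called 1, against 1.80%.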

How the results depend on the processing

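The PSME1, PSME2, PSMD12 and PSMG1 construct calls were kept in all 16 alternatives, while the ADRM1 and PSMG4 guide calls were kept in 11 and 13 of 17. With dCas12a-VPR guides, forward-strand counts gave 0 calls and reverse-strand counts 1. Between constructs, removing the length and GC trend gave 11 calls. For the difference of guide effects, DESeq2 gave 1 call and no low-count filter 2. Library size alone gave the list a median of -0.00447 with dCasMINI-VPR guides and -0.00175 with dCas12a-VPR guides. It shifted all genes alike, to -0.0393 and -0.0225, so the list stayed 0.0349 and 0.0207 above all genes, against 0.0351 and 0.0212 with TMM. The list's median moved with reverse-strand counts to 0.0629 with dCasMINI-VPR guides, and with removal of the length and GC trend to -0.0132 with dCas12a-VPR guides (all genes -0.0139). The spread of level per length in the beta ring was 3.13-fold, and 3.91-fold by the principal transcript. The cause of the other shifts was not tested.

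Leaving out 1 library at a time gave 0 to 8 calls and medians of -0.0154 to 0.0606 for dCasMINI-VPR guides, 0 to 3 calls and -0.0516 to 0.0873 for dCas12a-VPR guides, 0 to 4 calls and -0.0447 to 0.0774 for their difference, and 4 to 9 calls and 0.0398 to 0.11 between constructs. A library left alone was assumed to vary like the other groups. Replicates share only a number: deviations of the replicate 1 libraries correlated at 0.0737 with dCasMINI-VPR and 0.149 with dCas12a-VPR over 8586 genes. A replicate block within construct gave 1 call, ADRM1, for the difference of guide effects, and 0, 2 and 6 calls elsewhere. Low counts limit PSMA2, PSMA6 and PSMB10, whose 95% intervals between constructs reach beyond 0.5 log2 units.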
